A study of Mus musculus with 10 samples.

Results

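Glycolysis breaks glucose down to pyruvate and lactate, and glycogen is the branched store of glucose that a muscle fibre builds at rest and breaks down during contraction. Fast-twitch fibres are rich in the enzymes of both pathways, and myostatin, a secreted protein that limits muscle growth, is made mainly by muscle. The 33 genes described here code for glucose transporters, hexokinases, glycolytic enzymes, the glycerol phosphate shuttle, enzymes that set the level of fructose bisphosphates, and the enzymes and targeting proteins of glycogen. They were chosen by name: 20 on the glycolysis side and 13 on the glycogen side. A gene counted as measured where a probe set (a group of probes on the array for 1 transcript) carried its symbol and no other, and the brightest such probe set over all arrays stood for it. Of the 33 genes, 31 had such a probe set and 29 entered the test, 17 of glycolysis and 12 of glycogen, among 10704 genes tested in all.

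Arrays were made from the gastrocnemius of the calf in 10 mice, all male, on a C57BL/6 background and 7.5 months old. The 5 Floxed_Mstn mice carried floxed myostatin genes, which Cre recombinase deletes, and the 5 WT_Mstn mice carried normal ones. Both groups carried the CAGG-CreER transgene, a tamoxifen-activated Cre behind a promoter that is active in most tissues, and both received 8 tamoxifen injections from 4 months of age. By the labels, the groups thus differed in their myostatin alleles and shared the transgene and the drug, and the transgene is not limited to muscle.

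Apart from the summed intensities of cell markers, all values are log2 of the deposited intensity, a relative brightness for each probe set. They compare arrays for 1 gene and never 1 gene with another. The sums add deposited intensities before log2, so the brightest probe sets weigh most in them. They are not a measure of cell number. A probe set was tested where its mean over all arrays was at least 4, and 46.5% to 47.6% of probe sets lay at or above that level on a given array. No probe set carried the name Mstn, so the deletion itself was not checked here. All 13 fast and all 9 slow fibre markers were bright enough to be tested, which does not tell which muscle was taken. The means of Myh4, the fast myosin heavy chain, were 15.68 in Floxed_Mstn muscle and 15.66 in WT_Mstn muscle. Whole-muscle RNA was measured, so fewer cells of a type and less RNA per cell cannot be told apart in any value here.

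None of the 29 genes passed the test of Floxed_Mstn against WT_Mstn muscle (limma, Benjamini-Hochberg adjusted p under 0.05), and the lowest adjusted p was 0.325. Among all 21154 probe sets tested 21 passed, or 0.0993%, and by brightest probe set 14 of 10704 genes, or 0.131%. At these rates a list of 29 genes would hold few or no calls, so a count of 0 is near the background. Differences are Floxed_Mstn minus WT_Mstn throughout. They had a median of 0.02 over the glycolysis genes (11 above 0 and 6 below). Over the glycogen genes the median was 0.06 (9 above and 3 below), beside -0.0049 over all genes tested. Of those 10704 genes 5196 lay above 0 and 5508 below, the background for counts of direction throughout. At an unadjusted p under 0.05 there were 3 glycogen genes, Ppp1r3c, Gbe1 and Stbd1, all higher in Floxed_Mstn muscle. That is 3 of 29 genes, or 10.3%, where 3.89% of all genes were higher and 5.02% lower by the same rule.

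The promoters of these 3 genes are shown because they had the lowest p values of the list, with the letters ACGTG (or CACGT on the other strand) and CAGCTG in capitals. ACGTG is the core of the sites bound by hypoxia-inducible factors, known regulators of glycolytic genes, and CAGCTG is a form of the E-box that myogenic factors bind. Each sequence is from RefSeq (GRCm38.p6) and runs 5′ to 3′ from 250 bases before the annotated start of transcription to 50 after it.
Ppp1r3c, chr19:36736555-36736854, minus strand: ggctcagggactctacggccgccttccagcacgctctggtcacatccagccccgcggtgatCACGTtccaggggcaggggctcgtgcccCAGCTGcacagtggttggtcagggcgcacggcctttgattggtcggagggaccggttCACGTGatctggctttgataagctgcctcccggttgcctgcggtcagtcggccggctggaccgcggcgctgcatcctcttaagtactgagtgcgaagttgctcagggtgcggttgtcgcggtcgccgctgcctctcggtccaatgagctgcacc
Gbe1, chr16:70313699-70313998, plus strand: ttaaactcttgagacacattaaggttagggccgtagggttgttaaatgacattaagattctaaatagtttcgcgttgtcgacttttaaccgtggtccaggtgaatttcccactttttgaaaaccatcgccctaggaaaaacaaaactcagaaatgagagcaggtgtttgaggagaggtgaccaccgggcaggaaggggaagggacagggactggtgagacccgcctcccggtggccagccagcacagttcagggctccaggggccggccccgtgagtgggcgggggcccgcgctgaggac
Stbd1, chr5:92602801-92603100, plus strand: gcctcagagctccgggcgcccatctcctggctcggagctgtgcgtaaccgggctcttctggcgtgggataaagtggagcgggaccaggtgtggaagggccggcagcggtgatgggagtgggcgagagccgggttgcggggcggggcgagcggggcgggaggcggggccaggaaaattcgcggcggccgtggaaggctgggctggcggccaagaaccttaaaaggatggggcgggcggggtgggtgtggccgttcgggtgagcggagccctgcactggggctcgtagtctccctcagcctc
The Ppp1r3c window held 3 matches to ACGTG on the 2 strands, of which 2 overlap in the palindrome CACGTG, and 1 match to CAGCTG. The Gbe1 and Stbd1 windows held neither, which says only that these letters are not in these 300 bases.

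Promoters were found for 31 of the 33 genes, with 45 windows in all, since several have more than 1 start. ACGTG stood in 46.7% of these windows and in 20.9% of the 21263 windows of protein-coding genes, searched on both strands. CACGTG, which contains ACGTG, stood in 13.3% and 7.84%, and CAGCTG in 31.1% and 15.6%. The median share of G and C was 59.0% in the windows of these genes and 56.3% in those of protein-coding genes. By gene, 18 of 31 had ACGTG in at least 1 window, beside 5886 of 27025 genes (21.8%) over all promoters. Those 27025 genes have 32851 windows and include genes that are not protein-coding. More windows per gene give more room for a match, so the 2 shares by gene are not like for like. The 18 include Pgk1, Ldha, Aldoa, Slc2a1, Pfkfb3 and Pygm. These are letter counts and not bound sites, and starts of 1 gene can overlap.

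**Figure D1:**
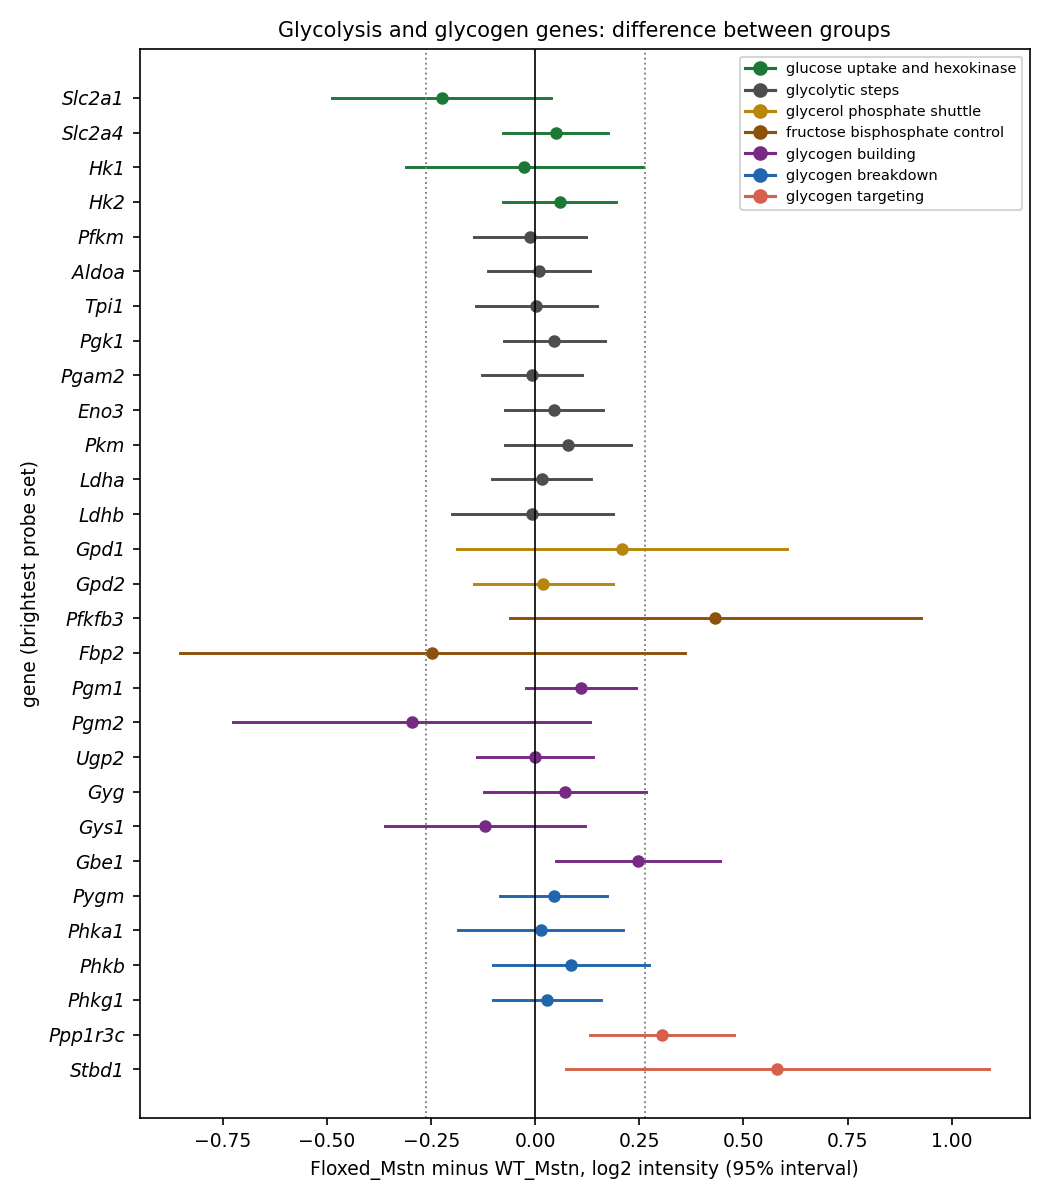
Difference in log2 intensity between Floxed_Mstn and WT_Mstn muscle (horizontal axis, points) for each of the 29 genes tested (vertical axis), with the 95% interval as a bar and the functional group as colour; dotted lines mark a 1.2-fold difference either way. The 9 glycolytic steps lie in a narrow band around 0, while Ppp1r3c, Gbe1 and Stbd1 have intervals that lie above 0 before any adjustment.

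Glucose enters the fibre through transporters and is trapped by hexokinase. Slc2a4 codes for GLUT4, the transporter that insulin and contraction move to the membrane, and Hk2 for the main hexokinase of muscle. Slc2a4 measured 13.39, 13.43, 13.40, 13.51 and 13.48 in Floxed_Mstn mice 1 to 5, against 13.36, 13.42, 13.37, 13.37 and 13.43 in WT_Mstn mice 1 to 5. Hk2 measured 13.78, 13.68, 13.82, 13.72 and 13.73 in Floxed_Mstn mice, against 13.77, 13.64, 13.61, 13.68 and 13.72 in WT_Mstn mice. The groups overlapped for both, with differences of 0.05 ± 0.06 for Slc2a4 and 0.06 ± 0.06 for Hk2 (SE, limma adjusted p = 0.942 and 0.928). A dimmer Slc2a4 probe set, at a mean of 9.28, gave -0.02.

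Slc2a1 codes for GLUT1, the transporter of basal glucose uptake, which is abundant in endothelium and nerve sheath. It measured 11.28, 11.10, 11.40, 11.41 and 11.70 in Floxed_Mstn mice, against 11.52, 11.43, 11.81, 11.59 and 11.65 in WT_Mstn mice. Of the 5 Floxed_Mstn values 4 lay below every WT_Mstn value and the fifth among them, so the groups overlapped. The difference was -0.22 ± 0.12 (SE, limma adjusted p = 0.730), and the other 2 probe sets gave -0.23 and -0.20. Without the 3 arrays of highest hybridisation control signal (Floxed_Mstn 1 and 3 and WT_Mstn 3) it was -0.15, and that of Hk2 was 0.0031. With array weights that of Hk2 was 0.02. Markers of other cells stood as follows, where 3.89% of all genes tested were higher and 5.02% lower at an unadjusted p under 0.05. Of 6 endothelial markers 5 had lower values in Floxed_Mstn muscle, 2 of them at an unadjusted p under 0.05, and none passed. Their summed intensity ran from 2509 to 2886 in Floxed_Mstn muscle and from 3002 to 3379 in WT_Mstn muscle, without overlap. All 3 measured Schwann cell markers had lower values, with sums of 4199 to 6116 in Floxed_Mstn and 4999 to 6833 in WT_Mstn muscle, 1 at an unadjusted p under 0.05, and none passed. Of 8 red cell markers only Alas2 reached the test, at 4.68 ± 0.45 in Floxed_Mstn and 4.27 ± 0.49 in WT_Mstn muscle (SD, n = 5 each). The summed intensity of the 3 red cell markers with a probe set ran from 30.6 to 52.4 in Floxed_Mstn and from 22.2 to 38.6 in WT_Mstn muscle. The part of these cells in the Slc2a1 values was not tested.

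Hk1, the hexokinase of most other tissues, was dim. It averaged 6.02 ± 0.22 in Floxed_Mstn and 6.05 ± 0.19 in WT_Mstn muscle (SD, n = 5 each), with a limma adjusted p of 0.991. A second Hk1 probe set, at a mean of 2.20, fell below the filter, and 1 named for several genes was not used.

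Differences were small along the glycolytic chain. Of the 11 genes of this chain 9 could be tested, from phosphofructokinase to lactate dehydrogenase, and their differences ran from -0.01 to 0.08. For each of these 9 genes the 95% interval of the difference lay within 1.2-fold either way. All 9 had a mean above 13, and 396 of 477 among all genes tested at 13 or more had such an interval. Pfkm, the muscle phosphofructokinase that commits sugar to glycolysis, averaged 14.26 ± 0.05 in Floxed_Mstn and 14.27 ± 0.06 in WT_Mstn muscle. Its interval ran from -0.15 to 0.12. Aldoa, which splits fructose bisphosphate, differed by 0.01, Tpi1, which interconverts the resulting triose phosphates, by 0.0028, and Pgam2, the muscle phosphoglycerate mutase, by -0.0079. The Aldoa value came from a probe set of the x_at type, whose probes can bind similar transcripts, and its 4 other probe sets gave 0.03 to 0.06.

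Pgk1, the first step that yields ATP, differed by 0.05 and its other probe sets by 0.12 and 0.15. Pkm, the pyruvate kinase that ends the chain, had the lowest p of these steps. It measured 14.01, 14.15, 14.05, 14.17 and 14.16 in Floxed_Mstn mice, against 14.06, 14.12, 13.91, 13.98 and 14.07 in WT_Mstn mice. The values overlapped, with a difference of 0.08 ± 0.07 (SE, limma adjusted p = 0.885), or 0.05 without WT_Mstn mouse 3.

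Eno3, the muscle enolase, measured 15.13, 15.12, 15.14, 15.18 and 15.13 in Floxed_Mstn mice, against 15.10, 15.11, 15.07, 15.08 and 15.11 in WT_Mstn mice. Every Floxed_Mstn value lay above every WT_Mstn value, by a difference of 0.05, or 1.03-fold (limma adjusted p = 0.943). Its pooled SD of 0.02 within groups was far below the SE of 0.05 that limma gave, since limma draws each gene's variance toward that of all genes. After quantile normalization between arrays the difference was 0.0087. In all, 3 of the 29 genes had groups that did not overlap (Eno3, Pgm1 and Ppp1r3c), each higher in Floxed_Mstn muscle, beside 1.32% of all genes higher and 1.31% lower in this way.

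Lactate dehydrogenase has an A chain, typical of fast glycolytic fibres, and a B chain, typical of slow and oxidative fibres and of heart. Ldha averaged 14.94 ± 0.02 in Floxed_Mstn and 14.92 ± 0.03 in WT_Mstn muscle, and Ldhb averaged 14.11 ± 0.14 in Floxed_Mstn and 14.12 ± 0.10 in WT_Mstn muscle (SD, n = 5 each). Neither differed beyond its spread, with differences of 0.02 for Ldha and -0.0067 for Ldhb (limma adjusted p = 0.990 and 0.996). All 9 slow fibre markers had lower values in Floxed_Mstn muscle, with a median of -0.26 and none past the test at either the adjusted or the unadjusted level. Their summed intensity ran from 85121 to 176592 in Floxed_Mstn and from 111894 to 188520 in WT_Mstn muscle. Of 13 fast fibre markers 12 had higher values, with a median of 0.03 and sums of 487843 to 513448 in Floxed_Mstn and 477960 to 511789 in WT_Mstn muscle, and none passed.

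Gapdh, the dehydrogenase often used as a loading control, carried its own name alone only on 3 array control probe sets, which were left out of the main test. On the brightest of these, at the 3′ end, it measured 15.33, 15.24, 15.33, 15.29 and 15.23 in Floxed_Mstn mice, against 15.17, 15.25, 15.30, 15.27 and 15.27 in WT_Mstn mice. The groups overlapped, and with control probe sets kept in the fit the difference was 0.03 (limma adjusted p = 0.977). The middle and 5′ probe sets differed by 0.07 each. The 3′ minus 5′ difference, a sign of RNA integrity, was 0.45 ± 0.03 in Floxed_Mstn and 0.49 ± 0.03 in WT_Mstn muscle (SD, n = 5 each). Its part in the other values was not tested. Gpi1, the glucose phosphate isomerase, had no probe set under its symbol in the annotation and is not analysed here.

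The glycerol phosphate shuttle carries reducing equivalents from glycolysis to the mitochondrion, with Gpd1 in the cytosol and Gpd2 in the inner membrane. Gpd1 measured 11.83, 12.34, 11.92, 12.13 and 12.39 in Floxed_Mstn mice, against 12.25, 12.27, 11.46, 11.82 and 11.77 in WT_Mstn mice. WT_Mstn mouse 3 was lowest, and without it the difference of 0.21 ± 0.18 (SE, limma adjusted p = 0.886) became 0.09, while the second probe set gave 0.12. Gpd2 differed by 0.02, and its 4 probe sets ran from -0.10 to 0.17 without agreeing in sign.

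The genes of fructose bisphosphate control varied widely between mice. Pfkfb3 makes fructose 2,6-bisphosphate, the strongest activator of phosphofructokinase, and Fbp2 is the muscle bisphosphatase that runs the step backward toward glycogen. Pfkfb3 measured 12.53, 13.22, 12.10, 12.47 and 13.01 in Floxed_Mstn mice, against 12.62, 12.39, 11.94, 11.95 and 12.25 in WT_Mstn mice. Floxed_Mstn mice 2 and 5, the highest for Gpd1 as well, lay above all WT_Mstn mice, while the other 3 lay among them. The difference was 0.43 ± 0.22, or 1.35-fold (SE, limma adjusted p = 0.722, 95% interval -0.06 to 0.93). Without Floxed_Mstn mouse 2 it was 0.29, and the second probe set, at a mean of 5.36, also gave 0.29.

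Fbp2 measured 9.32, 10.68, 10.28, 10.28 and 9.87 in Floxed_Mstn mice, against 10.58, 10.94, 9.97, 10.004 and 10.17 in WT_Mstn mice. The groups overlapped widely, with a difference of -0.25 ± 0.27 (SE, limma adjusted p = 0.934), and with single mice left out it ran from -0.06 (without Floxed_Mstn mouse 1) to -0.40 (without Floxed_Mstn mouse 2). It was -0.10 without WT_Mstn mouse 2 and with array weights, and -0.15 without the 3 arrays named above. Pfkfb1, a related kinase and bisphosphatase, had no probe set under its symbol in the annotation.

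**Figure D2:**
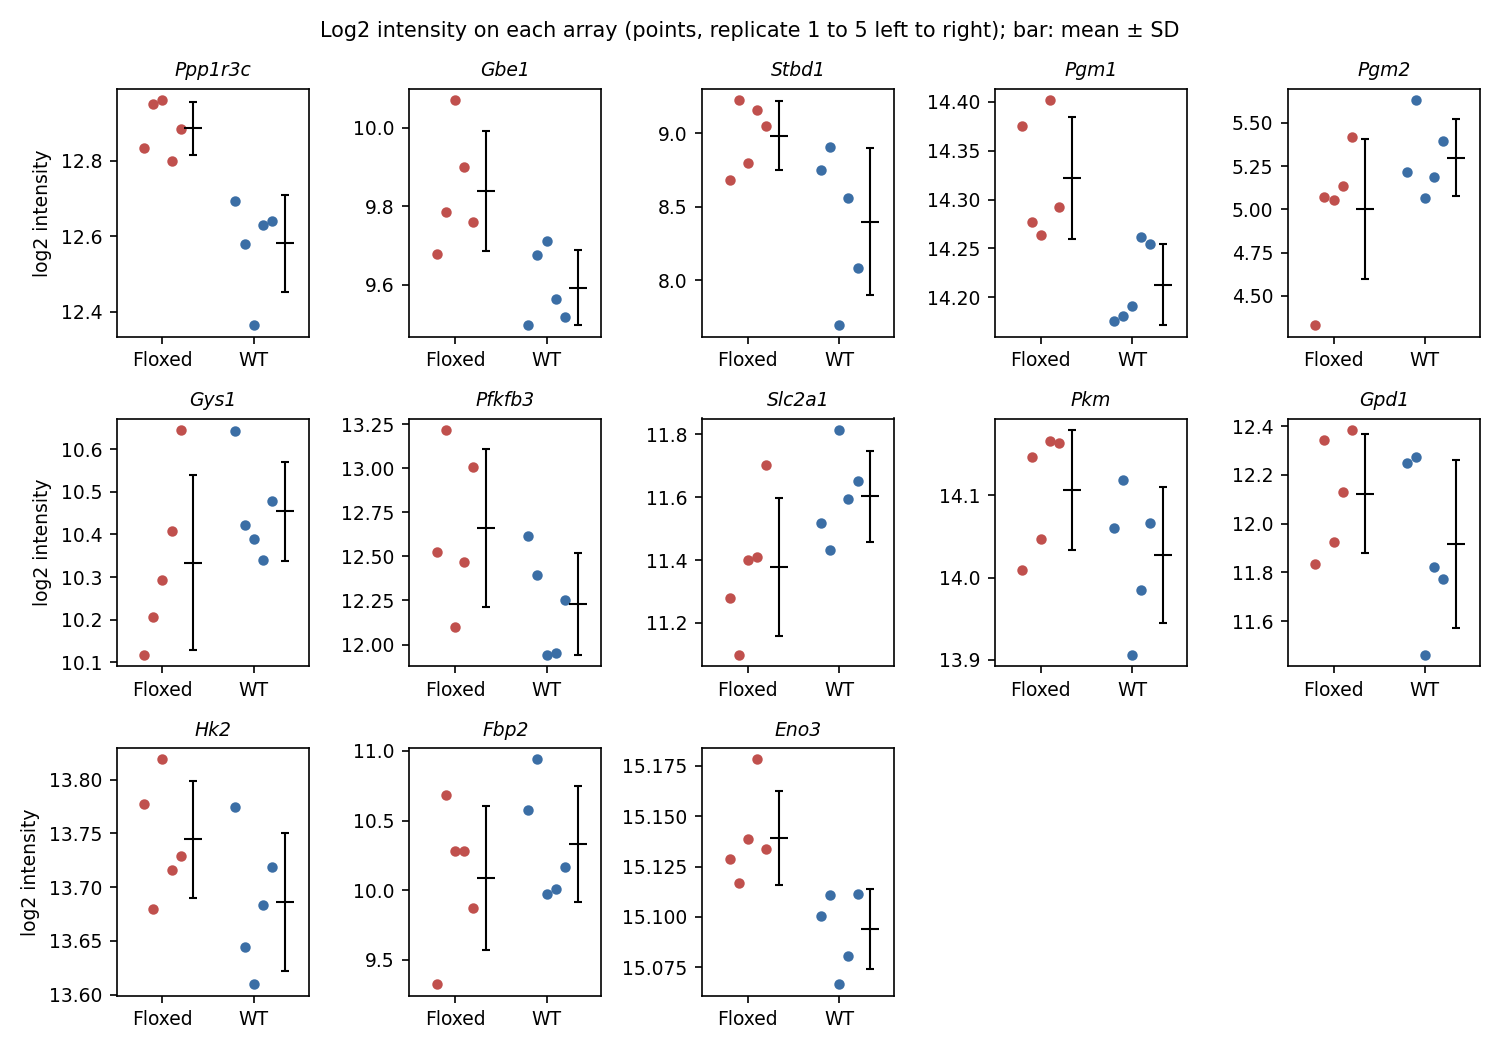
Log2 intensity (vertical axis, its own scale in each panel) on each array for 13 genes, with the 5 Floxed_Mstn mice in red on the left and the 5 WT_Mstn mice in blue on the right, and mean ± SD as a black bar. Red and blue points do not overlap for Ppp1r3c, Pgm1 and Eno3, and they overlap for the other 10 genes.

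Glycogen is built from glucose 1-phosphate, which phosphoglucomutase makes and Ugp2 couples to UDP. Pgm1 (gene 72157) is the main phosphoglucomutase, and in older mouse nomenclature it was called Pgm2. It measured 14.37, 14.28, 14.26, 14.40 and 14.29 in Floxed_Mstn mice, against 14.18, 14.18, 14.19, 14.26 and 14.25 in WT_Mstn mice. The groups touched but did not overlap, with a difference of 0.11 ± 0.06, or 1.08-fold (SE, limma adjusted p = 0.743). The second Pgm1 probe set gave 0.13 with overlapping groups.

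Pgm2 (gene 66681), a phosphopentomutase, was dim at 4.33, 5.07, 5.05, 5.14 and 5.42 in Floxed_Mstn mice, against 5.22, 5.63, 5.07, 5.19 and 5.40 in WT_Mstn mice. Floxed_Mstn mouse 1 stood lowest, and without it the difference of -0.30 (limma adjusted p = 0.809) became -0.13. Without the 3 arrays of highest hybridisation control signal it was -0.15, and that of Gys1 was -0.05. Ugp2 averaged 13.90 in both groups, with a difference of -0.00033 and an interval from -0.14 to 0.14. Its 5 probe sets ran from -0.13 to 0.02.

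Glycogenin, coded by Gyg, primes the chain, glycogen synthase, coded by Gys1, extends it, and the branching enzyme, coded by Gbe1, adds side chains. Gyg differed by 0.07 ± 0.09 (SE) and its other probe set by 0.06. Gys1 measured 10.12, 10.21, 10.29, 10.41 and 10.65 in Floxed_Mstn mice, against 10.64, 10.42, 10.39, 10.34 and 10.48 in WT_Mstn mice. Of the 5 values, 3 of the Floxed_Mstn values lay below all WT_Mstn values and 1 above, for a difference of -0.12 ± 0.11 (SE, limma adjusted p = 0.899), and the second probe set gave -0.02. With single mice left out it ran from -0.07 (without Floxed_Mstn mouse 1 or WT_Mstn mouse 1) to -0.20 (without Floxed_Mstn mouse 5).

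Gbe1 measured 9.68, 9.79, 10.07, 9.90 and 9.76 in Floxed_Mstn mice, against 9.50, 9.68, 9.71, 9.56 and 9.52 in WT_Mstn mice. Of the Floxed_Mstn values 4 lay above the whole WT_Mstn range and the lowest within it. The difference was 0.25 ± 0.09, or 1.19-fold (SE, 95% interval 0.05 to 0.44), with an unadjusted p of 0.0196 and an adjusted p of 0.536 in limma. It rested on 1 probe set.

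Breakdown of glycogen starts with the phosphorylase Pygm, which phosphorylase kinase switches on when calcium rises. Pygm averaged 14.42 ± 0.06 in Floxed_Mstn and 14.38 ± 0.03 in WT_Mstn muscle (SD, n = 5 each). The kinase subunits Phka1, Phkb and Phkg1 differed by 0.01, 0.09 and 0.03. The other probe sets gave 0.09 and 0.12 for Phka1 and 0.07 for Phkg1. By brightest probe set all 4 differences lay above 0 and all 4 intervals spanned 0, with limma adjusted p between 0.917 for Phkb and 0.993 for Phka1.

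Targeting proteins bring enzymes to the glycogen particle. Ppp1r3c, also known as PTG, anchors protein phosphatase 1 to glycogen, where the phosphatase activates glycogen synthase and inactivates phosphorylase. It measured 12.83, 12.95, 12.96, 12.80 and 12.88 in Floxed_Mstn mice, against 12.69, 12.58, 12.36, 12.63 and 12.64 in WT_Mstn mice. Every Floxed_Mstn value lay above every WT_Mstn value, and WT_Mstn mouse 3 was lowest. The difference was 0.30 ± 0.08, or 1.23-fold (SE, 95% interval 0.13 to 0.48), with an unadjusted p of 0.00295 and an adjusted p of 0.325 in limma. A dimmer probe set, at a mean of 7.92, gave 0.49 ± 0.25 (SE) with overlapping groups. Ppp1r3c had the lowest p of the list, and over all 23 alternative settings its adjusted p ran from 0.0846 to 0.721, so it passed under none of them.

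Stbd1 binds glycogen and tethers it to membranes of the cell, and it is linked to the delivery of glycogen to lysosomes. It measured 8.68, 9.22, 8.80, 9.16 and 9.05 in Floxed_Mstn mice, against 8.75, 8.91, 7.69, 8.56 and 8.09 in WT_Mstn mice. The groups overlapped, since Floxed_Mstn mice 1 and 3 lay below the highest WT_Mstn mouse. The difference of 0.58 ± 0.23, or 1.5-fold, was the largest of the list (SE, limma adjusted p = 0.579), and it became 0.41 without WT_Mstn mouse 3. Ppp1r3a, the muscle-specific targeting subunit of the same phosphatase, had 1 probe set, at 2.21 ± 0.01 in Floxed_Mstn and 2.25 ± 0.10 in WT_Mstn muscle (SD, n = 5 each). This is near the lowest values on the arrays, so its transcript was not measured here.

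**Figure D3:**
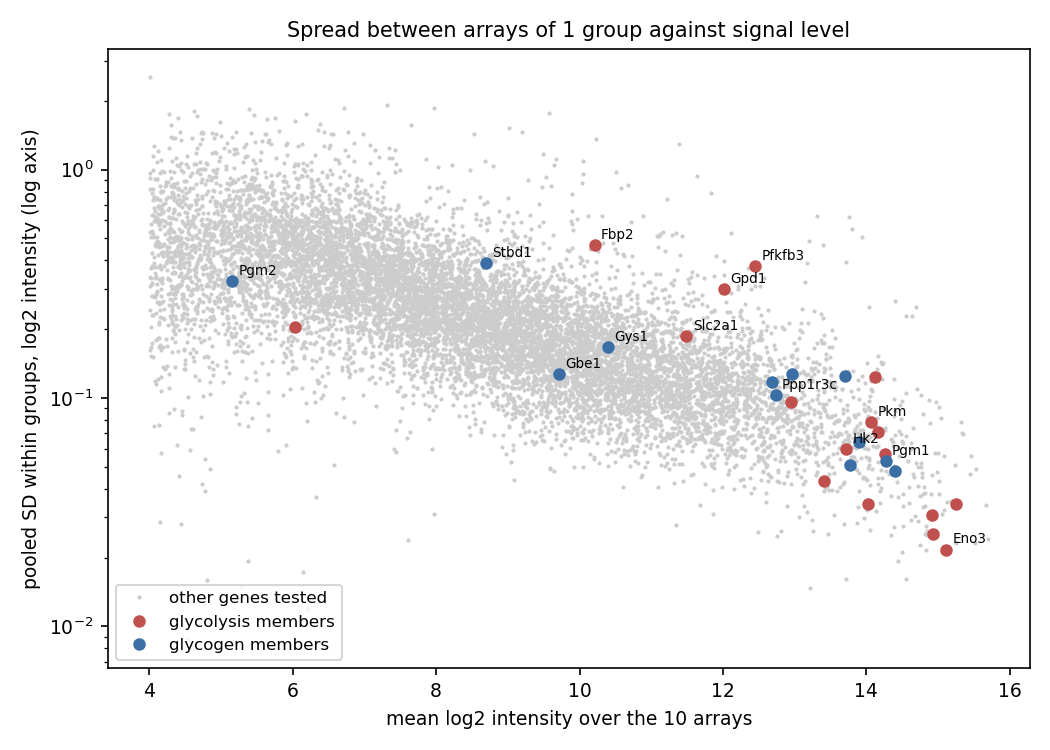
Pooled SD within groups (vertical axis, log scale, log2 intensity) against mean log2 intensity over the 10 arrays (horizontal axis) for the 10704 genes tested, with glycolysis genes in red, glycogen genes in blue and other genes in grey. Eno3 lies at the low edge, while Pfkfb3, Fbp2 and Gpd1 lie near the top for their level.

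Genes of the 2 pathways differed in how much they varied between mice of 1 group. Among genes whose mean lay within 0.5 log2 units of its own, Pfkfb3 had a larger pooled SD than 99.5%, Fbp2 than 98.7%, Gpd1 than 97.1%, Stbd1 than 92.0% and Ldhb than 90.5%. Eno3 had a larger one than only 1.59%, Pgk1 than 7.18%, Hk1 than 8.34%, Slc2a4 than 8.64% and Ldha than 9.64%. Of the 16 genes at a mean of 13 or more, 15 had an interval within 1.2-fold, beside 396 of 477 among all genes at that level. Of the 13 genes below 13, 2 did. Over all levels 17 of the 29 did, beside 2216 of 10704 genes, or 20.7%. These 2 shares are not like for like, since 16 of the 29 but only 477 of the 10704 lay at 13 or more. The arrays' highest values were 16.01 to 16.07, and differences near the top of a scale can be compressed, so narrow intervals of the brightest genes do not show equal transcript amounts.

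Other genes of these pathways were taken from lists made by name, and none passed limma's adjusted test. Over all genes tested 3.89% were higher and 5.02% lower at an unadjusted p under 0.05, the background for the counts that follow. Of 13 tested genes for other isoforms of the same enzymes, 5 had higher and 8 lower values in Floxed_Mstn muscle, 1 of them at an unadjusted p under 0.05. That was Pgam1, the phosphoglycerate mutase of most tissues, at 10.06 ± 0.18 in Floxed_Mstn and 10.34 ± 0.13 in WT_Mstn muscle (SD, n = 5 each, limma adjusted p = 0.554). Pfkp, a phosphofructokinase of non-muscle cells, followed with a difference of -0.38 (limma adjusted p = 0.680). Both are also made by the other cells of muscle. All 6 markers of fibroblasts, which make the matrix between fibres, had lower values, 4 at an unadjusted p under 0.05, with sums of 16384 to 22144 in Floxed_Mstn and 24582 to 30214 in WT_Mstn muscle, and 1 passed (Col1a2, a collagen chain, named after its value was seen: -0.84, limma adjusted p = 0.0494). The 3 tested smooth muscle markers had lower values, all 3 at an unadjusted p under 0.05 and none past the test, with a median of -0.47. The 6 macrophage markers had lower values, none at an unadjusted p under 0.05, with a median of -0.39. Of 4 tested adipocyte markers 2 had higher and 2 lower values, none at an unadjusted p under 0.05. The part of these cells in Pgam1 and Pfkp was not tested. Of 12 other genes listed under glycogen 7 had higher and 5 lower values, none at an unadjusted p under 0.05. The lowest p was that of Pgm5 (-0.23, limma adjusted p = 0.680), then of the synthase kinase Gsk3a (-0.15, limma adjusted p = 0.730). Pgm3 and Pgm5 were listed for their names, and their part in glycogen was not tested.

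Of 23 genes that handle pyruvate and lactate, 19 had higher values in Floxed_Mstn muscle, with a median of 0.09, and 2 had an unadjusted p under 0.05. Over all genes tested 3.89% were higher and 5.02% lower at that level, and 5196 of 10704 were higher at any p. Gpt, an alanine aminotransferase that links pyruvate to alanine, averaged 8.13 ± 0.24 in Floxed_Mstn and 7.70 ± 0.13 in WT_Mstn muscle (SD, n = 5 each, limma adjusted p = 0.402). Pcx, the pyruvate carboxylase that makes oxaloacetate, averaged 8.44 ± 0.29 in Floxed_Mstn and 7.97 ± 0.42 in WT_Mstn muscle (limma adjusted p = 0.645). Of 27 regulators 14 had higher and 13 lower values. At an unadjusted p under 0.05 there were 1 higher and 2 lower, beside the same 3.89% and 5.02% of all genes. Mlxip, a glucose-sensing transcription factor also called MondoA, averaged 10.42 ± 0.12 in Floxed_Mstn and 10.10 ± 0.13 in WT_Mstn muscle (SD, n = 5 each, limma adjusted p = 0.369). Tbc1d1, which restrains GLUT4 at rest, averaged 10.41 ± 0.25 in Floxed_Mstn and 10.71 ± 0.07 in WT_Mstn muscle (limma adjusted p = 0.570).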

How the data were processed

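Total RNA of 10 muscles was labelled as biotinylated cDNA and hybridised to 1 array each, per the labels' protocols. The deposited intensity values are linear and were made by the authors with GCRMA, per the submitters' processing notes, which corrects background by probe sequence, normalizes between arrays and summarises probe sets. The GCRMA version is not given in the sources used here. Arrays have no read depth, so their number limits the precision.

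The log2 of the 45101 deposited values per array was taken. Names came from GEO's platform annotation (34958 with 1 symbol, 932 with several, 9211 unlisted), 64 control probe sets were left out, and the 21154 whose mean reached 4 were tested with limma 3.58.1 in R 4.3.3 (two-sided, Benjamini-Hochberg over all). The fit was tested on simulated data. Where several probe sets were named for a gene, the brightest stood for it. Values on every array are given for the 6 genes of lowest p on each side and those whose groups did not overlap, with Slc2a4 and Gapdh added after their values were seen, and of other lists the 2 genes of lowest p. The genes and lists were chosen with earlier results of these data known. Nothing in the labels says whether the mice were littermates, so litter could not enter the fit. The p-values set each group difference against the spread between animals within groups, with each gene's variance drawn toward that of all genes. Differences between litters, if any, are not accounted for. Alternatives changed the filter, normalization, variance model, weights, block, probe set choice and arrays used. Plots used matplotlib 3.10.9 (Python 3.11.15).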

Additional observations from a re-analysis of the deposited data

Results flagged for a closer look

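An array far from the other 4 of its group was looked for in 62 groups, and 4 were found, where chance gives about 1 in 20, or 3.1. Hk1 was 6.39 in WT_Mstn mouse 5, against 5.95 to 5.98 in the others. In WT_Mstn mouse 3, Aldoa was high at 15.28 against 15.23 to 15.25, Pygm was low at 14.33 against 14.38 to 14.39, and Ppp1r3a was 2.43 against 2.20 in the others, near the arrays' lowest values.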

How the results depend on the processing

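None of the genes passed under any of the 23 alternatives, where 28 to 30 were tested, or 16 by second brightest probe set. The lowest adjusted p was 0.0846, for Ppp1r3c with a variance trend and robust fit. The medians stayed above 0: 0.0072 to 0.04 over glycolysis genes and 0.03 to 0.08 over glycogen genes. Counts of direction moved, from 20 higher and 9 lower in the main fit to 23 and 6 after median centring. Without Floxed_Mstn mouse 4 they were 18 and 11. No direction changed for 19 of 29 genes, Ppp1r3c, Gbe1, Stbd1, Pgm1, Pfkfb3 and Slc2a1 among them, while 10 with differences near 0 changed sign somewhere. The median over all genes moved by at most 0.04 under any alternative. The count over the whole table, 21, was 11 without the filter on dim signal, 34 after quantile normalization, 58 with a variance trend and robust fit, 67 with array weights, 99 with the hybridisation control covariate, 5 without the 3 arrays of highest hybridisation controls (Floxed_Mstn 1 and 3 and WT_Mstn 3), and 1 to 17 with each array left out. With the replicate block it became 1. Across the 5 shared replicate numbers, correlations of the deviations from group means were -0.51, 0.13, 0.62, -0.20 and 0.19. Of the 5 Floxed_Mstn arrays 1 matched its own number best. So few values cannot decide whether arrays of 1 number were paired or shared a batch, and the labels name neither. The causes of these changes were not tested. Dim signal limits Hk1, Pgm2 and Ppp1r3a, of which Ppp1r3a lay near the floor.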
